A study of Mus musculus with 6 samples.

Results

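The genes described here are 34 targets and partners of p53, the transcription factor encoded by Trp53 that answers DNA damage and other stress. They were chosen by name from textbook knowledge of the pathway, and all 34 had a probe among the 27343 named genes of the array, 65 of its 41174 probes. The probe of highest mean signal stood for each gene. The 34 genes comprised 3 factors of the p53 family, 5 feedback regulators, 6 growth arrest and stress genes, 13 death genes, 4 genes of repair and metabolism, and 3 membrane or signalling genes.

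Mouse embryonic fibroblasts, primary connective tissue cells, were infected with virus and their total RNA was profiled at day 8 of reprogramming on 6 one-colour arrays. Every culture carried SKO, an abbreviation the labels leave unexplained and which in this field usually stands for Sox2, Klf4 and Oct4. To SKO were added Flag (the control), Gadd45a (labelled Ga) or G39A, given as a negative mutant of Gadd45a, with 2 arrays per group, numbered replicate 1 and 2. The question in the series title is which genes Gadd45a regulates during reprogramming. No label says whether the replicates were separate cultures, so a p-value measures only the spread between these arrays, which may be technical.

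In unstressed cells p53 is held low by the ubiquitin ligase Mdm2 and its partner Mdm4. When stress frees it, p53 switches on genes that halt the cell cycle, genes that kill the cell, and its own inhibitors, Mdm2 among them, which close a feedback loop. In reprogramming fibroblasts p53 is known as a barrier, because losing it raises the yield of induced pluripotent cells, and Gadd45a is itself one of its targets.

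Levels are given as processed signal, in intensity units, scaled so that all arrays had the same 75th percentile. Differences are of log2 signal. A probe counted as measured on an array where the scanner software marked it well above background. That held for 57.0% to 62.9% of the spots per array, and no spot was saturated. Of the 34 genes, 30 were well above background on all 6 arrays. The others were Trp63, Trp73, Rrm2b and Steap3. Levels of different genes were not compared, because probes differ in how brightly they bind.

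The arrays of the same number resembled each other far more than those of the same group (r of 0.988 to 0.993 against 0.919 to 0.920 over 15529 genes). The replicate 1 arrays lay on slides 1 and 2 and all replicate 2 arrays on slide 3, so replicate number and slide cannot be told apart. In replicate 1, Flag and Gadd45a shared slide 1 and G39A lay alone on slide 2. Differences of G39A from the other groups within replicate 1 therefore cannot be told apart from slide either. Fibroblast markers were well above background on every array (9 or 10 of 10), with a summed signal of 356275 to 424217 in replicate 1 and 729887 to 781830 in replicate 2. Of 7 epithelial markers, 6 were measured on each replicate 1 array and 2 or 3 on each replicate 2 array, and their summed signal was 4693 to 5107 against 912 to 2170. Of 7 pluripotent cell markers, 3 or 4 were measured in replicate 1 and 1 or 2 in replicate 2. Macrophage markers were measured at 5 of 7 on every array, with summed signals of 2122 to 2187 in replicate 1 and 5505 to 8896 in replicate 2. Of 4 endothelial markers, 2 were measured in replicate 1 and 1 or 2 in replicate 2, with summed signals of 771 to 816 and 168 to 221, and Pecam1 and Cdh5 were not well above background on any array. Pou5f1, which encodes Oct4, read 3835, 4971 and 5522 on the replicate 1 arrays of Flag, Gadd45a and G39A and 3.68, 4.65 and 4.65 on those of replicate 2, where it was not well above background. The replicate 2 level was at least 228-fold lower. The replicate 2 signal of Pou5f1 goes against the label if SKO holds a mouse Pou5f1 with this probe's sequence. Sox2 went the other way: it was well above background on at least 1 replicate 2 array and on no replicate 1 array. That goes against the label of replicate 1 if SKO holds a mouse Sox2 with its probe's sequence. Directions that rest on either number are therefore those of arrays labelled SKO.

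The Gadd45a probe, which checks the group labels where the introduced gene holds its sequence, read 1013, 540 and 1210 on the replicate 1 arrays of Flag, Gadd45a and G39A and 2378, 2061 and 2269 on those of replicate 2. It was lowest on the arrays labelled Gadd45a within both numbers. The probe begins at base 878 of the transcript, and the labels do not say whether the virus carried that stretch. The groups are therefore called by their labels throughout.

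Some of these genes carry the p53 motif close to their start, as the following promoter sequences show. They were chosen as examples of death, stress and feedback genes in which a motif search found a match. Mdm4 had a pair with as many mismatches as Bbc3 and Aen, and Ccng1, Ppm1d and Ei24 had 1 half-site as Mdm2 did, and these are not printed. The sequences are RefSeq windows of the build GRCm38.p6, from 250 bases before to 50 bases after the annotated start of transcription, written along the gene's strand. Capitals mark matches to the p53 half-site, a decamer whose consensus reads alike on both strands, or pairs of half-sites at most 13 bases apart with at most 3 mismatches in all. Shown are Bax (pore-forming death protein, chr7:45466849-45467148, minus strand), Bbc3 (the death protein Puma, chr7:16309333-16309632, plus strand), Aen (a nuclease of apoptosis, chr7:78895808-78896107, plus strand), Sesn1 (a stress sensor, chr10:41887189-41887488, plus strand) and Mdm2 (chr10:117710709-117711008, minus strand).
Bax: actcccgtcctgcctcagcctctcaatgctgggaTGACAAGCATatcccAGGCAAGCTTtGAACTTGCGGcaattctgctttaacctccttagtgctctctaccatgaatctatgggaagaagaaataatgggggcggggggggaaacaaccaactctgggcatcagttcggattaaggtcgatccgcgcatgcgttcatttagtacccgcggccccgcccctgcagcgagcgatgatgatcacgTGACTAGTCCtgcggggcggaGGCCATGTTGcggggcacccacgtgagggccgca
Bbc3: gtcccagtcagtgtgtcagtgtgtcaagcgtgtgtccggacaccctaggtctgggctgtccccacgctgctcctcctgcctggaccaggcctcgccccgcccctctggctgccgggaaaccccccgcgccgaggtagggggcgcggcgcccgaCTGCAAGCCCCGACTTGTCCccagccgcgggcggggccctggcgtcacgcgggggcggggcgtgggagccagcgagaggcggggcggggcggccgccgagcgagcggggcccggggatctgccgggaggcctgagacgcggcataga
Aen: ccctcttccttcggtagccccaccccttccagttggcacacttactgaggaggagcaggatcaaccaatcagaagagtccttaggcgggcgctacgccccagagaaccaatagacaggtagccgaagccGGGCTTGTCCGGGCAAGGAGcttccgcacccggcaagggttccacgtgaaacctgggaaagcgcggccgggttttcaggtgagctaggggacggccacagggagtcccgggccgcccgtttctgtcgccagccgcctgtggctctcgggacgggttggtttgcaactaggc
Sesn1: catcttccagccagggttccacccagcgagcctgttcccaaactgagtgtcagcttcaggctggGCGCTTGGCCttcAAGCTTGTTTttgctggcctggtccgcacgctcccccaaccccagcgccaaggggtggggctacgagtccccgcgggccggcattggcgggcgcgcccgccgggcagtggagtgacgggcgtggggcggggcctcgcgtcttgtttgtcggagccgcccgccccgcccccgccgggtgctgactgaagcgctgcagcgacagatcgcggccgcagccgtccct
Mdm2: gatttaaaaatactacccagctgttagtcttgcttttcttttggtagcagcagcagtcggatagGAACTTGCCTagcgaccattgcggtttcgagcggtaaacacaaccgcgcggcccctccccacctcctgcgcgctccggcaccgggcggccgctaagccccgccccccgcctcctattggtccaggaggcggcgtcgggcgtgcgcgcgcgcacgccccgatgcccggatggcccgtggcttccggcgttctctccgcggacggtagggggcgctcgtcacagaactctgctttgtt

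The fewest mismatches of a pair in the Bax window were 2, and 2 pairs that share a half-site had that number. One began at position -216 from the start, with 5 bases between its half-sites. The other began at -201, with 1 base between. The Sesn1 pair held 2 mismatches with 3 bases between and began at -186. The pairs of Bbc3 (at -97) and Aen (at -121) held 3 mismatches with 0 bases between. Mdm2 had 1 exact half-site, at -186, and no pair. Windows were listed for 27 of the 34 genes. An exact half-site was found for 10 of the 27 genes (37.0%), against 9.55% of 27025 genes of the table, and a pair for 6 of 27 (22.2%), against 7.63%. Half-site and pair matches can overlap, as in Bax, Aen and Sesn1. A match describes letters in this window and says nothing about binding, and genes with more listed starts had more letters searched.

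Array probes are 60 bases long. The probes of 3 genes that the results below turn on are shown, in lower case, with their place in the build mm9 that the scanner files give: Trp53 itself (chr11:69403134-69403193, plus strand), the stress cytokine Gdf15 (chr8:73153471-73153530, minus strand) and the death receptor Tnfrsf10b (chr14:70177538-70177597, plus strand).
Trp53: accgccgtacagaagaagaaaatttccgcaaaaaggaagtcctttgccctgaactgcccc
Gdf15: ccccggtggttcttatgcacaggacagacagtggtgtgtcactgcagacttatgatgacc
Tnfrsf10b: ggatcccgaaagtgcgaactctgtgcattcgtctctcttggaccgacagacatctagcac

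Each group comparison began with the factor itself. Trp53 read 1146, 1182 and 1165 on the replicate 1 arrays of Flag, Gadd45a and G39A and 1296, 1349 and 1348 on those of replicate 2. On this probe the 3 groups lay within 0.06 of each other on the log2 scale within each number. A second, dimmer Trp53 probe, measured on all 6 arrays, did not give the same picture: G39A minus Flag was 0.58 and 0.22 there, Gadd45a minus Flag 0.30 and 0.17, and Gadd45a minus G39A -0.28 and -0.05. Trp63, a relative needed in skin, was not well above background on any replicate 1 array and read 30.2 to 50.5 in replicate 2. Trp73, a relative known from neurons and multiciliated cells, was measured only in replicate 1, at 46.4 to 78.0. Neither relative was tested between the groups, because neither was measured on both arrays of any group.

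**Figure D1:**
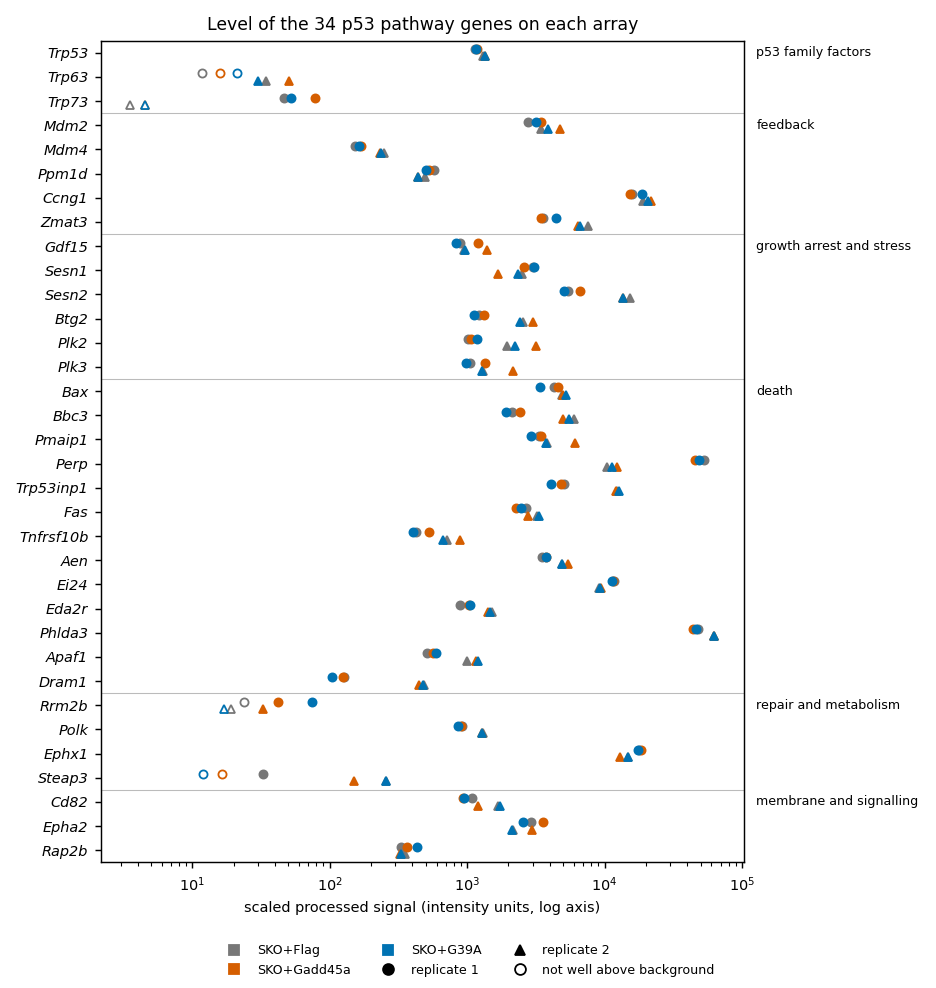
Scaled processed signal (intensity units, log axis) of the 34 genes on each of the 6 arrays, ordered by role. Colour gives the group, circles are replicate 1 and triangles replicate 2, and open symbols are not well above background, which is seen for Trp63, Trp73, Rrm2b and Steap3 alone. The circles and triangles of Perp, Dram1, Bbc3 and Sesn2 do not overlap, nor do those of most other genes shown, Trp53 among them. The share of all genes on the array without such overlap was not counted.

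The first comparison asked what Gadd45a changed against the control Flag and against its mutant G39A. None of the 32 genes tested passed in any of the 3 comparisons (limma with Benjamini-Hochberg adjustment over 15529 genes, lowest adjusted p over the 32 genes 1.0). The background was the same: 0 of 15529 genes, or 0%, passed for Gadd45a against Flag, for G39A against Flag and for Gadd45a against G39A. At an unadjusted p under 0.05 there were 96, 80 and 114 genes, of which 0, 0 and 1 were p53 pathway genes. This fit had no term for replicate number, so its spread holds the gap between the numbers. With that term 0 genes passed too (lowest limma adjusted p of a p53 pathway gene 0.445). The unadjusted counts were then 1342, 443 and 1387 genes, of which 6, 0 and 6 were p53 pathway genes. The values that follow are therefore descriptions within replicate numbers. The comparisons of Gadd45a with Flag and with G39A share the Gadd45a arrays, so their values are given side by side and do not support each other.

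Of the growth arrest and stress genes, Gdf15 and Plk3 read highest on the Gadd45a array in both numbers. Gdf15, a secreted cytokine of stressed cells, read 894, 1199 and 833 on the replicate 1 arrays of Flag, Gadd45a and G39A and 943, 1393 and 961 on those of replicate 2. Both Gadd45a arrays were above all 4 other arrays, and the Flag and G39A values overlapped. The log2 difference from Flag was 0.42 in replicate 1 and 0.56 in replicate 2, and that from G39A 0.53 and 0.54.

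Plk3, a stress-activated kinase, read 1047, 1354 and 974 on the replicate 1 arrays of Flag, Gadd45a and G39A and 1300, 2149 and 1287 on those of replicate 2. Both Gadd45a values exceeded all Flag and G39A values, with differences of 0.37 and 0.72 from Flag and 0.48 and 0.74 from G39A. Btg2, an antiproliferative regulator of mRNA decay, lay above Flag by 0.13 and 0.24 and above G39A by 0.24 and 0.31, less than the gap between its replicate numbers. Plk2, a kinase of centriole duplication, read 1022, 1070 and 1183 in replicate 1 and 1935, 3168 and 2232 in replicate 2, in the same order of groups. Its Gadd45a value stood apart in replicate 2 only, by 0.71 from Flag, against 0.07 in replicate 1.

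The sestrins, stress-induced inhibitors of the growth kinase mTORC1, differed from these genes. Sesn1 read 3021, 2573 and 3049 on the replicate 1 arrays of Flag, Gadd45a and G39A and 2518, 1670 and 2360 on those of replicate 2. It was lowest on the Gadd45a array of both numbers, by -0.23 and -0.59 from Flag and -0.24 and -0.50 from G39A. A second probe of Sesn1 measured on all arrays gave a mean difference of -0.51 from Flag. Sesn2 had differences of 0.27 and -0.17 from Flag, opposite in sign in the 2 numbers.

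Of the death genes, Tnfrsf10b had nearly the same difference in both numbers. This receptor of the death ligand TRAIL read 423, 527 and 405 in replicate 1 and 712, 880 and 673 in replicate 2, again for Flag, Gadd45a and G39A in turn. The differences from Flag were 0.32 and 0.31 and those from G39A 0.38 and 0.39. Its other 2 probes were measured on all arrays and gave mean differences of 0.21 and 0.31 from Flag. Levels in replicate 1 and replicate 2 did not overlap, so the Gadd45a array of replicate 1 lay below the Flag array of replicate 2.

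Pmaip1, the death protein Noxa, read 3332, 3455 and 2897 in replicate 1 and 3805, 6117 and 3748 in replicate 2. Its Gadd45a value exceeded Flag by 0.69 in replicate 2 and by 0.05 in replicate 1. Fas, another death receptor, was lowest in Gadd45a within both numbers, by -0.25 and -0.22 from Flag. The differences of Bax, the pore-forming protein of the mitochondrial membrane, from Flag were 0.09 and 0.03. Those of Bbc3 were 0.18 and -0.25, opposite in sign. Aen lay 0.10 and 0.16 above Flag. Over all 13 death genes the median difference from Flag was 0.02, against -0.01 over 13989 genes measured on all arrays.

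Among the feedback genes Mdm2 read 2788, 3450 and 3149 on the replicate 1 arrays of Flag, Gadd45a and G39A and 3449, 4769 and 3861 on those of replicate 2. The Gadd45a array was highest within both numbers, by 0.31 and 0.47 from Flag and 0.13 and 0.30 from G39A, but its replicate 1 value equals that of Flag in replicate 2 to within 1 unit. The second Mdm2 probe gave mean differences of 0.31 from Flag and 0.49 from G39A. Zmat3, an RNA-binding target that feeds back on p53 messages, had differences of -0.06 and -0.23 from Flag. Mdm4, the phosphatase gene Ppm1d and the cyclin gene Ccng1 had differences between -0.17 and 0.20 from Flag within numbers.

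Epha2, a receptor kinase of cell contact and a p53 target, read 2926, 3584 and 2559 on the replicate 1 arrays of Flag, Gadd45a and G39A and 2153, 2954 and 2116 on those of replicate 2. It was highest in Gadd45a within both numbers, by 0.29 and 0.46 from Flag and 0.49 and 0.48 from G39A. Cd82, a tetraspanin known as a metastasis suppressor, had differences of -0.22 and -0.48 from Flag and of -0.01 and -0.53 from G39A. Rap2b, a small GTPase, had differences of 0.13 and -0.10 from Flag.

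Rrm2b, the p53-induced subunit of ribonucleotide reductase, read 23.7, 42.2 and 74.3 in replicate 1 and 19.1, 32.8 and 16.9 in replicate 2. It was well above background on both Gadd45a arrays and on the G39A array of replicate 1 only, so it entered the group tests through Gadd45a alone. Its differences from Flag were 0.83 and 0.78, with both Flag arrays not well above background. Those from G39A were -0.82 and 0.96, opposite in sign. Polk, a lesion-bypass polymerase, and Ephx1, a detoxifying hydrolase, differed from Flag by -0.20 to 0.05 within numbers.

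**Figure D2:**
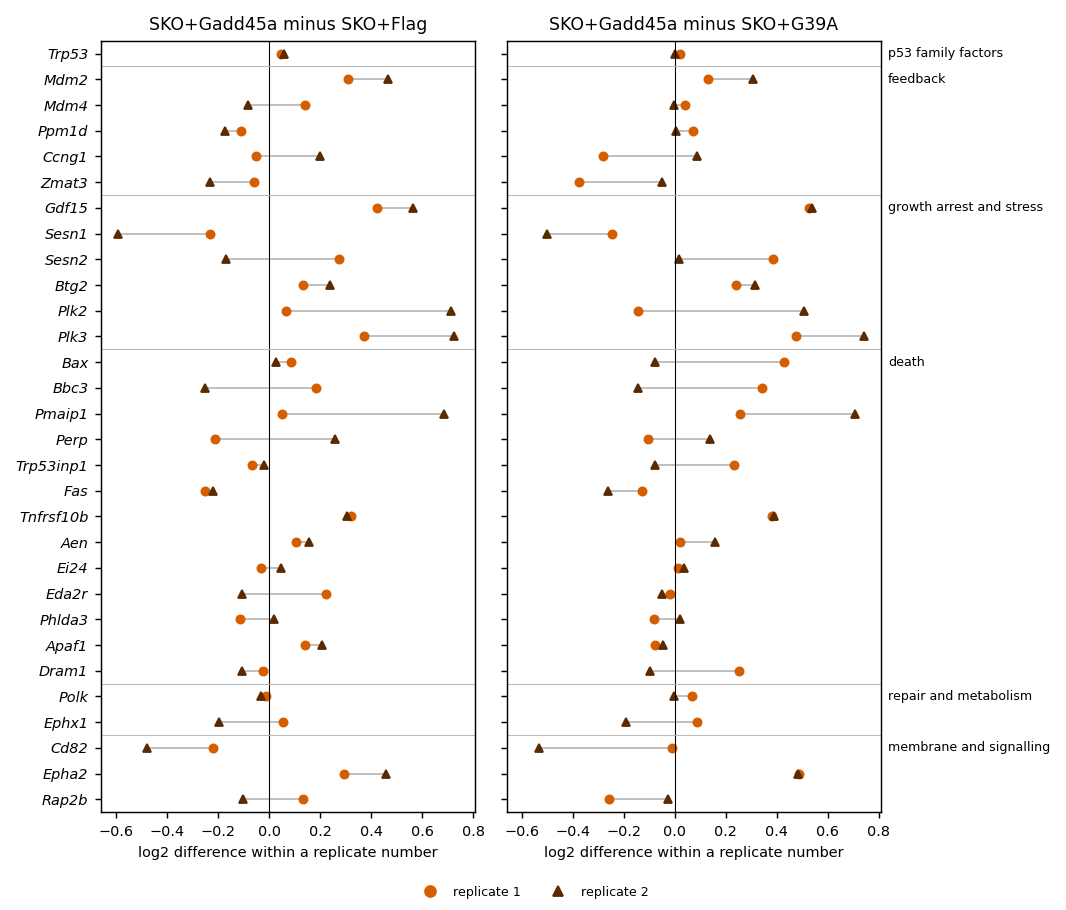
Log2 difference of the array labelled Gadd45a from Flag (left) and from G39A (right) within replicate 1 (circles) and replicate 2 (triangles) for the 30 genes measured on all 6 arrays; a grey line joins the 2 numbers. Gdf15, Plk3, Tnfrsf10b and Epha2 lie above 0.25 in all 4 differences and Sesn1 lies below 0 in all 4, and none of these passed the test.

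Counted together, 9 of the 30 genes measured on all arrays lay above Flag and G39A on the Gadd45a array within both numbers, against 15.7% of 13989 genes, and 4 lay below both, against 18.8%. The 9 were Trp53, Mdm2, Gdf15, Btg2, Plk3, Pmaip1, Tnfrsf10b, Aen and Epha2, and the 4 were Zmat3, Sesn1, Fas and Cd82. Trp53 counts among the 9 on differences from G39A of 0.02 and 0.00, and its second probe gave the opposite sign. With at least 0.25 in all 4 differences, 4 of 30 lay above (Gdf15, Plk3, Tnfrsf10b and Epha2), against 1.39% of all genes, and 0 of 30 below, against 1.79%. For the mutant, G39A lay above both other groups in 1 of 30 (Apaf1; background 8.94%) and below both in 7 of 30 (background 12.1%). Those 7 were Ppm1d, Sesn2, Btg2, Plk3, Pmaip1, Tnfrsf10b and Epha2. A second Ppm1d probe measured on all arrays put G39A above Flag, by 0.16 on average, against -0.18 for the probe used. These counts are small and rest on genes picked with earlier results known. Their replicate 1 differences that involve G39A also lie between slides.

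By role, the median difference of Gadd45a from Flag was 0.29 over the 6 growth arrest and stress genes, 0.03 over the 5 feedback genes and 0.02 over the 13 death genes. Taken within replicate 1 and replicate 2, these medians were 0.20 and 0.40, -0.05 and -0.08, and 0.05 and 0.03. Against G39A the medians were 0.24, 0.02 and 0.08, beside 0.00 over all genes. Within the numbers they were 0.31 and 0.41, 0.04 and 0.00, and 0.02 and -0.05. For G39A against Flag they were -0.05, 0.07 and -0.04, beside -0.02. Over all 30 genes the median was 0.04 for Gadd45a against Flag and -0.04 for G39A against Flag. The mean difference of G39A from Flag ranged from -0.18 (Ppm1d) to 0.24 (Apaf1). The median standard error of a group difference over the 32 genes was 0.35 without a term for replicate number and 0.12 with it, and 0 of the 32 genes passed with it too.

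Cdkn1a, which encodes the cell cycle inhibitor p21 and is the best known arrest target of p53, read 21565, 23177 and 21286 in replicate 1 and 23603, 27901 and 23405 in replicate 2. Its differences from Flag were 0.10 and 0.24 and those from G39A 0.12 and 0.25, with adjusted p of 1.0 in limma. Within the wider pathway, 0 of 20 upstream regulators, 0 of 36 further targets and 0 of 17 apoptosis genes measured on all arrays passed in any group comparison.

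The second comparison set the replicate 2 arrays against the replicate 1 arrays within the 3 groups, 3 against 3. Of the 30 genes measured on all arrays, 23 passed (limma, adjusted p under 0.05), against 57.5% of 13986 genes, 18 of them higher in replicate 2 (33.9% of all genes) and 5 lower (23.6%). At 2-fold or more, 6 of 30 were higher, against 9.59% of all genes, and 1 was lower, again against 9.59%. The 6 were Sesn2, Btg2, Plk2, Bbc3, Trp53inp1 and Dram1, and the 1 was Perp. With the 3 further genes measured on all 3 arrays of 1 number only, 26 of 33 passed, against 60.2% of 15923 genes. Those 3 entered the test only through the number in which they were measured, so their calls add no support. The median log2 difference of the 30 genes was 0.46, and within Flag, Gadd45a and G39A it was 0.35, 0.49 and 0.42, against 0.11 over all genes. Replicate 2 also differed in the epithelial, pluripotent cell, macrophage, endothelial and fibroblast markers given above, whose part in these differences was not tested. In RNA from whole cultures, fewer cells of a type and less RNA per cell cannot be told apart.

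Perp was the death gene that was lower by the most. It encodes a membrane protein of desmosomes, the junctions of epithelial cells, and is also a p53 target in apoptosis. It read 52697, 45545 and 49054 on the replicate 1 arrays of Flag, Gadd45a and G39A and 10346, 12378 and 11263 on those of replicate 2. All replicate 2 values lay below all replicate 1 values, 4.34-fold on average (log2 -2.12, standard error 0.12, limma adjusted p = 0.000293). Of the 7 epithelial markers, Cdh1, Epcam and Ocln were not well above background on any replicate 2 array, and Cldn4 was not on any array of either number. Each of the others, Krt8, Krt18 and Cldn3, was well above background on at least 1 replicate 2 array.

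Dram1, a lysosomal membrane protein of p53-dependent autophagy, was 3.97-fold higher in replicate 2 (limma adjusted p = 0.000241). It read 126, 124 and 105 on the replicate 1 arrays of Flag, Gadd45a and G39A and 482, 447 and 479 on those of replicate 2. The death protein gene Bbc3 read 2137, 2427 and 1916 in replicate 1 and 5977, 5025 and 5554 in replicate 2, and was 2.56-fold higher (limma adjusted p = 0.00131). Neither gene's replicate numbers overlapped, and the share of all genes without such overlap was not counted.

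Trp53inp1, a nuclear stress protein that promotes p53 phosphorylation, read 4093 to 5036 on the replicate 1 arrays and 12092 to 12748 on the replicate 2 arrays, 2.67-fold higher (limma adjusted p = 0.000661). Its second probe gave a mean log2 difference of 1.29. Apaf1, the scaffold of the apoptosome, read 513 to 598 on the replicate 1 arrays and 1000 to 1193 on the replicate 2 arrays, a log2 difference of 0.995 with a standard error of 0.07 and a limma adjusted p of 0.000681. Within the 3 groups its difference lay between 0.96 and 1.03.

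The other changes among the death genes were smaller: Tnfrsf10b (log2 0.74), Eda2r, a receptor of the tumour necrosis factor family (0.58), Aen (0.46), Phlda3, an inhibitor of Akt signalling (0.44), and Fas (0.33) were higher, and Ei24, a protein of the endoplasmic reticulum (-0.31), was lower. Phlda3 did not pass with quantile normalization (0.12, limma adjusted p = 0.204) or with the authors' value table (0.12, adjusted p = 0.193). Pmaip1 (0.46, limma adjusted p = 0.05005, just above the threshold) and Bax (0.32, adjusted p = 0.0966) did not pass. Under at least 1 alternative setting Pmaip1 did pass. In all, 9 of 13 death genes were higher (69.2%, against 33.9% of all genes) and 2 lower (15.4%, against 23.6%).

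**Figure D3:**
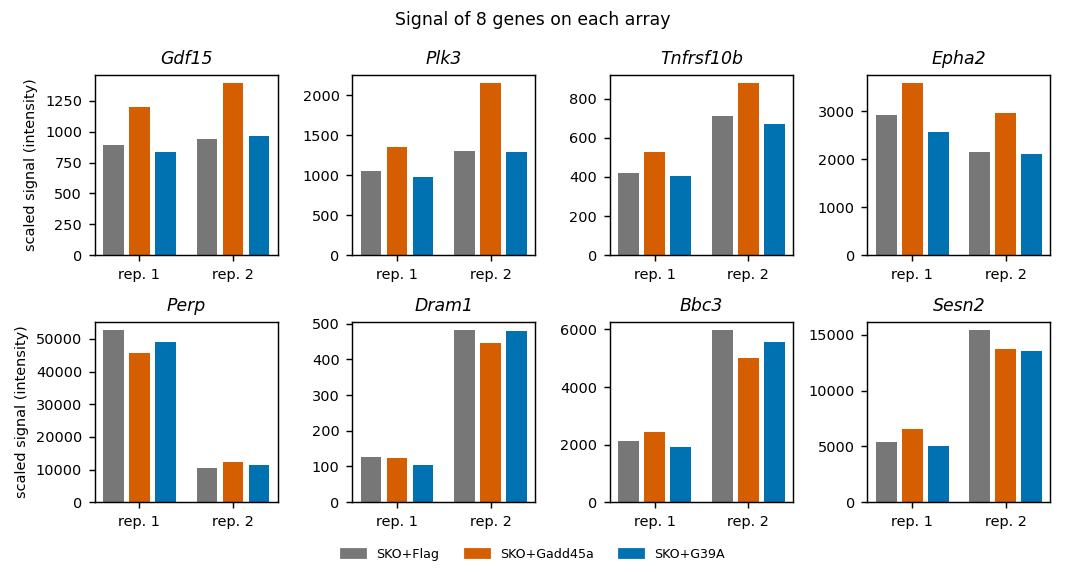
Scaled processed signal (intensity units, axes from 0) of 8 genes on each array, as bars coloured by group, with the replicate 1 arrays at the left and the replicate 2 arrays at the right of each panel; each bar is 1 array and has no error bar. In the upper row the Gadd45a bar is the tallest within both numbers, and in the lower row the replicate numbers differ by more than the groups.

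Of the growth arrest and stress genes, 4 of 6 were higher and 1 was lower, beside the same shares of all genes, 33.9% and 23.6%. Sesn2 read 5434, 6575 and 5037 in replicate 1 and 15434, 13717 and 13579 in replicate 2, 2.52-fold higher (limma adjusted p = 0.00112). Btg2 read 1130 to 1332 on the replicate 1 arrays and 2426 to 3016 on the replicate 2 arrays, 2.17-fold higher (limma adjusted p = 0.000524), and its other 2 probes gave log2 differences of 1.01 and 1.14. In both genes all replicate 2 values lay above all replicate 1 values, and the share of all genes without such overlap was not counted.

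Plk2 was 2.20-fold higher (limma adjusted p = 0.00475), by 1.57 on the log2 scale in Gadd45a and 0.92 in both other groups. Plk3 was higher by 0.46 and Sesn1 was lower by a log2 difference of -0.42, against the direction of Sesn2. Gdf15 did not pass (0.17, limma adjusted p = 0.137). The 2 sestrins thus differed in opposite directions between the replicate numbers.

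Among the feedback genes Mdm2 (0.36), Mdm4 (0.56) and Zmat3 (0.85) were higher in replicate 2, while Ccng1 (0.30, limma adjusted p = 0.0619) and Ppm1d (-0.22, adjusted p = 0.0581) did not pass. Zmat3 read 3421 to 4440 on the replicate 1 arrays and 6412 to 7522 on the replicate 2 arrays. Trp53 itself did not pass, at 0.19 with a standard error of 0.07 and a limma adjusted p of 0.0817. The 3 groups gave 0.18, 0.19 and 0.21 for Trp53. Under at least 1 alternative setting each of Ccng1, Ppm1d and Trp53 did pass.

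Steap3, an iron reductase of the endosome, stood apart among the metabolic genes. It read 32.8, 16.6 and 12 on the replicate 1 arrays of Flag, Gadd45a and G39A and 255, 150 and 257 on those of replicate 2. It was well above background on the Flag array of replicate 1 and on all replicate 2 arrays, and its log2 difference of 3.52 (standard error 0.32, limma adjusted p = 0.00115) holds 2 dim values. With normexp background correction the log2 difference was 1.72, so its size depends on how dim signals are treated. Polk was higher by 0.54, Ephx1 was lower (-0.35), Cd82 was higher by 0.62 and Epha2 was lower (-0.33). Rap2b did not pass (-0.15), and Rrm2b was not tested because it was not measured on all 3 arrays of either number.

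The other p53 family factors were measured in 1 number each. Trp73 was at least 2.76-fold lower in replicate 2, and Trp63 was at least 1.55-fold higher there. These bounds set the mean of the measured arrays against the lowest signal marked well above background on each dim array, or the probe's own signal where higher. The limma adjusted p of 0.000107 and 0.0151 belong to log2 differences of -3.79 and 1.24, which hold dim values. Over the scalings tried these differences ranged from -3.79 to -1.04 for Trp73 and from 0.40 to 1.41 for Trp63.

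**Figure D4:**
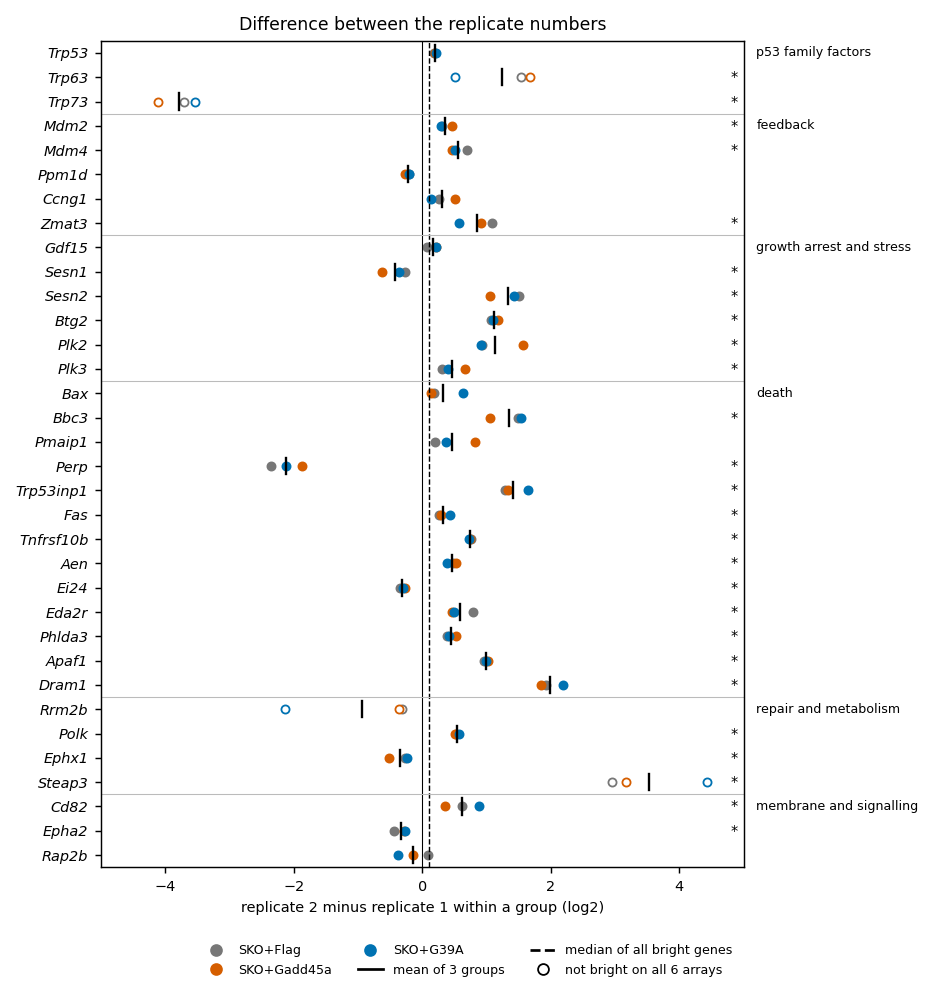
Log2 difference of replicate 2 from replicate 1 for each of the 34 genes, with 1 point per group, a black bar at their mean, a dashed line at the median of all genes measured on all arrays (0.11) and an asterisk where the adjusted p is under 0.05. Open points mark the 4 genes not measured on all 6 arrays; Dram1 and Perp lie farthest from 0 among the other 30.

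Smaller differences lost their calls when 1 array was left out. With group as a term, leaving out either array of a group gave the same fit, with 1 residual degree of freedom instead of 2. The share of all genes called fell as well, from 60.2% to between 45.6% and 48.8%. A lost call therefore does not show that a difference rested on a single array. Leaving out any 1 of the 6 arrays ended the calls of Ei24, Epha2, Ephx1, Fas and Mdm2, with limma adjusted p from 0.0637 to 0.132. Leaving out any Gadd45a or G39A array ended those of Plk3 and Sesn1 (0.0668 to 0.0921). Leaving out any Flag or G39A array ended that of Cd82 (0.0519 to 0.0631), and leaving out either Flag array that of Trp63 (0.0779). The 5 death, stress and feedback genes with the largest differences, Perp, Dram1, Trp53inp1, Bbc3 and Sesn2, passed without any 1 array.

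The wider pathway was counted in the same way from lists of textbook members. Of 36 further targets measured on all arrays, 29 passed, 21 higher (58.3%) and 8 lower (22.2%), with a median of 0.63, against 0.11 over all genes. The 4 of smallest p among the higher ones were Trp53i13 (1.90), the stress-induced mTORC1 inhibitor Ddit4 (1.85), the sugar reductase Dcxr (1.53) and the death protein Siva1 (1.31). Among the lower ones they were the glycolysis regulator Tigar (-1.86), the growth factor binding protein Igfbp3 (-1.99), the mitochondrial superoxide dismutase Sod2 (-0.70) and the replication clamp Pcna (-0.87). Gadd45a belongs to this list and was higher in replicate 2 by 1.36, by 1.93 in the group labelled Gadd45a and by 1.23 and 0.91 in Flag and G39A.

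Upstream regulators of p53 lay near the background, with 7 of 20 higher (35%) and 4 of 20 lower (20%) and a median of 0.09. Cdkn2a, whose Arf product blocks Mdm2, was higher by 1.75, and Trp53bp1, Rpl5 and Trp53bp2 by 0.57, 0.55 and 0.40. The checkpoint kinase gene Chek1 was lower, with a log2 difference of -1.25, as were Trim24 (-1.22), a ligase for p53, Hipk2 (-0.89), a kinase of p53, and Ep300 (-0.41), an acetyltransferase.

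The apoptosis machinery lay at the background, with 6 of 17 higher (35.3%, against 33.9% of all genes) and 4 of 17 lower (23.5%, against 23.6%), and a median of 0.10 against 0.11. Those of smallest p were Bcl2l11 (2.67), Endog (0.89), Casp8 (0.78) and Bid (0.57) among the higher, and Bcl2 (-2.15), Mcl1 (-0.56), Xiap (-0.68) and Bcl2l1 (-0.54) among the lower. Cdkn1a did not pass, at 0.18 with a limma adjusted p of 0.117.

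**Figure D5:**
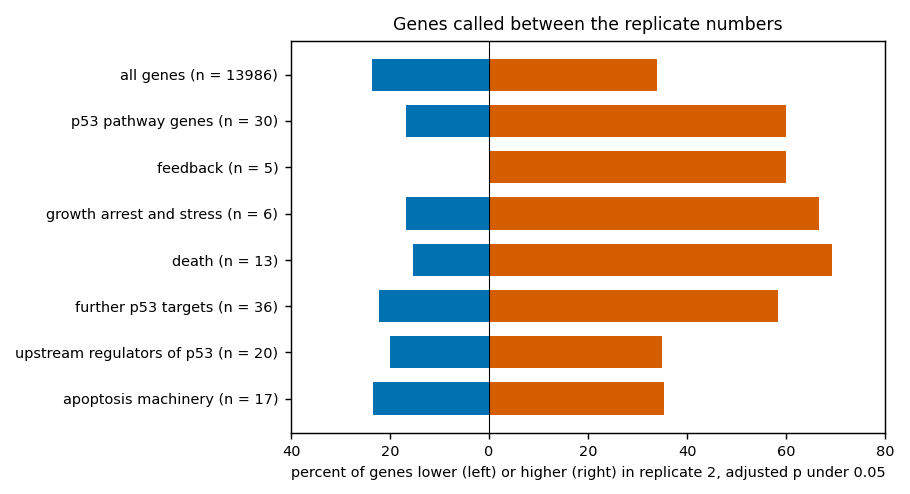
Percent of genes measured on all 6 arrays that were higher (right) or lower (left) in replicate 2 at an adjusted p under 0.05, for all genes and for each list, with the number of genes tested in brackets. The p53 pathway genes have 60% higher and 16.7% lower, against 33.9% and 23.6% of all genes, and the upstream regulators have 35% and 20%.

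Probes of 1 gene could be compared for 16 genes with 2 or more probes measured on all arrays. In 0 of these 16 did they differ in the sign of the difference between replicate numbers. Between the groups they did: in 3 of 16 for Gadd45a against Flag (Eda2r, Rap2b and Trp53inp1), in 5 for Gadd45a against G39A (Trp53, Mdm4, Ppm1d, Ccng1 and Eda2r) and in 5 for G39A against Flag (Mdm2, Mdm4, Ppm1d, Ccng1 and Eda2r). For Ccng1 the mean difference of Gadd45a from G39A was -0.10 on one probe and 0.32 on the other. Sizes did vary: the 4 Mdm4 probes gave log2 differences from 0.17 to 0.88, and the 2 Ccng1 probes gave 0.30 and 0.71.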

How the data were processed

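Processed signal intensity per spot came from the scanner files that the authors deposited, made with Agilent Feature Extraction 10.7 per the submitters' processing notes; the software subtracts background, and its 0 or 1 marks per spot (unit other) gave the outlier flags and the calls well above background. Spots marked as outliers and control spots were left out, and spots of a probe were averaged. Log2 signal minus each array's 75th percentile was analysed with limma 3.58 in R 4.3. For a group comparison, a probe had to be measured on each array of 1 group or more (15529 genes), and for the replicate comparison on all 3 arrays of either number (15923 genes). Group comparisons had no block (3 residual degrees of freedom). The replicate comparison had group as a term (2). P-values were Benjamini-Hochberg adjusted over all genes, with a threshold of 0.05. The replicate fit, and the group fit with the replicate number as a block, were tested on simulated data. The group fit without a block was not. The arrays simulated for the group fit held no gap between the replicate numbers.

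Named were all 34 genes, Cdkn1a, Gadd45a and Pou5f1, and of the other pathway lists the 4 of smallest p each way. The members and lists were chosen with earlier results of these data known. Names were updated by accession through RefSeq.

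Same-numbered arrays deviated from their group means together (r 0.911 to 0.915 for every pair of groups). Numbers were therefore taken as pairing the arrays in the differences within numbers, while the reported group fit left this pairing out. Alternatives were the replicate number or slide as a block, quantile normalization, normexp correction (offset 50) of the mean and background intensity that the authors deposited, filters, probe means, leaving out each array, and the log2 value table the authors deposited. That table matched its own array at r of at least 0.999 over 41096 probes, with column medians of 6.17; its sorted values were alike across arrays, and its normalization is not given in the sources used here. The number of arrays limits the precision.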

Additional observations from a re-analysis of the deposited data

Results flagged for a closer look

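A group difference of opposite sign in the 2 replicate numbers, by at least 0.2 on the log2 scale in each, was found for 3 of the p53 pathway genes tested. The share of all genes with such a difference was not counted. With 1 array per group and number, the difference between the numbers was not tested. For Perp, Gadd45a minus Flag was -0.21 in replicate 1 and 0.26 in replicate 2. For Rrm2b, Gadd45a minus G39A was -0.82 and 0.96, with the G39A array of replicate 2 not well above background. For Steap3, Gadd45a minus G39A was 0.47 and -0.78, with both replicate 1 arrays not well above background. Groups of 2 arrays are too small for a search for single outlying arrays.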

How the results depend on the processing

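With the replicate block, 0 genes passed in each group comparison, and the lowest adjusted p of a p53 pathway gene was 0.445 for Gadd45a against Flag, 0.990 for G39A against Flag and 0.511 for Gadd45a against G39A, so the block changed no call of these genes. At an unadjusted p under 0.05 the block gave 1342, 443 and 1387 genes, of which 6, 0 and 6 were p53 pathway genes. With the block and quantile normalization or the authors' value table, both combinations chosen after seeing the data, 1 gene passed for Gadd45a against G39A and was no p53 pathway gene. With slide as a random block 19, 3 and 7 genes passed for Gadd45a against Flag, G39A against Flag and Gadd45a against G39A, and 0 of them were p53 pathway genes, while with slide as a fixed block 0 genes passed in each (lowest adjusted p 0.237, 0.334 and 0.423). The median difference of the members for Gadd45a against G39A was 0.03, and 0.0697 with the mean of all probes. Leaving out 1 array moved the medians from -0.15 to 0.39 for Gadd45a against Flag, from -0.24 to 0.25 for G39A against Flag and from -0.20 to 0.30 for Gadd45a against G39A, since the remaining arrays are then unbalanced over the replicate numbers. These fits without the block assume that a lone array varies like the other groups.

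Between the replicate numbers, 26 of 33 tested members passed, beside 60.2% of 15923 genes. Of the 26, 15 passed under every alternative that tested them, and the share of all genes that did so was not counted. The other 11 (Aen, Cd82, Ei24, Epha2, Ephx1, Fas, Mdm2, Phlda3, Plk3, Sesn1 and Trp63) were lost under at least 1. In the other direction, 4 members that had not passed (Ccng1, Pmaip1, Ppm1d and Trp53) passed under at least 1 alternative. The share of all genes gained in this way was not counted. With no filter on dim probes 15 members passed, beside 26.7% of 27321 genes. Their median was 0.46, and 0.37 with quantile normalization and 0.36 with the authors' value table. Leaving out 1 array left 18 to 19 members called, beside 45.6% to 48.8% of 15923 genes, and a median of 0.41 to 0.49. No called member changed direction. Signals near background, as of Trp63, Trp73, Rrm2b and Steap3, limit what can be measured.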
